A study of Mus musculus with 35 samples.

Results

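MHC class I antigen presentation was followed as 9 genes across 27 bulk RNA-seq libraries of mouse pluripotent cells. They were the 9 of the 54446 genes of the table whose symbol was B2m, H2-K1, H2-D1, Tap1, Tap2, Tapbp, Psmb8, Psmb9 or Nlrc5, and each was found once. All libraries were labelled wild-type, with 3 per group. The in vitro groups were ESC-derived 3D EpiSCs and embryo-derived 3D EpiSCs, both grown in 3D Matrigel with FGF2, ActivinA, the tankyrase inhibitor XAV and the BMP antagonist Noggin, 2D EpiSCs, made by converting ESCs with FGF2 and ActivinA, and EpiLCs, which were ESCs after 48 h in FGF2 and ActivinA. The in vivo groups were the inner cell mass (ICM) at E3.5 and the epiblast at E4.5, at E5.5, at E6.5 and at E7.5, from untreated embryos, labelled CD-1 and male/female. The study's methods name CD1 and Pdgfra:H2B-GFP mice as the source of dissected epiblasts (at E4.5, GFP-negative cells of the reporter line were picked), E14 ESCs as its wild-type ESC line, and LifeAct-GFP and CD1 embryos at E5.5 as the source of embryo-derived lines. Each in vivo replicate was a pool of embryos, so its spread is that between pools. For the in vitro groups the sources used here do not say whether replicates were separate cultures or derivations, so p-values measure only the spread between these libraries, which may be technical.

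Class I molecules show peptides from inside the cell to CD8 T cells. A heavy chain (here H2-K1 or H2-D1) pairs with the light chain beta-2-microglobulin (B2m), the proteasome cuts proteins into peptides, the transporter made of Tap1 and Tap2 carries the peptides into the endoplasmic reticulum, and tapasin (Tapbp) holds the empty class I molecule at the transporter. Interferon-gamma induces most of these genes, among them the immunoproteasome subunits Psmb8 and Psmb9, and Nlrc5 is the transactivator of class I promoters. Early embryos and pluripotent cells are known for low surface class I.

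Values are TPM, relative abundances of transcripts that are corrected for transcript length and sum to the same total in each library, so they keep no depth. In vitro and in vivo libraries were made with different kits (poly-A capture with 8 PCR cycles, and total RNA with 13), so they stand side by side without a test. Fragmentation changed from 6 min at 85 °C for E3.5 and E4.5 to 4 min at 94 °C from E5.5, so that step and stage cannot be told apart. By the study's methods, isolation changed with stage as well. The ICM was separated by laser at E3.5, E4.5 cells were picked after immunosurgery and trypsin, and later epiblasts were dissected by hand. At the steps into and out of E4.5, isolation, and possibly mouse line, cannot be told apart from stage. A gene was called when limma's Benjamini-Hochberg adjusted p was below 0.05 and its difference in log2(TPM + 1) was above 1 in size. This scale understates the change of low genes. Tests covered autosomal protein-coding genes with TPM above 2 in at least 3 libraries, 11541 in vitro and 11880 in vivo. Of the 9 class I genes, 8 passed in vitro (Nlrc5 did not) and 7 in vivo (Tap2 and Nlrc5 did not). Tap2 passed in vitro only through 2D EpiSCs and EpiLCs, and Psmb9 through these and a single embryo-derived 3D EpiSC library. Psmb8 passed through all cultures but embryo-derived 3D EpiSCs. In vivo, Tap1 passed only through E3.5, Psmb9 through E3.5 and a single E4.5 library, and Psmb8 through E5.5 and E6.5, so those genes had to differ between stages to be tested at all.

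Genes of the pluripotent epiblast were present in every group, with the 9 epiblast markers (Pou5f1, Sox2, Nanog and others) summing to 3552 to 4748 TPM in vitro and 699 to 2023 TPM in vivo. Blood and immune cell markers, cells rich in class I, summed to 0.762 to 13.2 TPM over 10 genes in every library, and most of this was Cd68 in each group (group means 1.61 to 9.08 TPM). The pan-leukocyte gene Ptprc did not exceed 0.270 TPM, and Tyrobp was listed at 0 in all 27 libraries. Visceral and primitive endoderm markers, by contrast, reached 784 to 842 TPM at E5.5, 1296 to 1347 TPM at E6.5 and 1440 to 1464 TPM at E7.5 (9 of 9 above 2 TPM in each of those libraries), against 326 to 329 TPM at E3.5 and 138 to 161 TPM at E4.5. Trophoblast markers summed to 2026 to 2193 TPM at E3.5 and E4.5 and to 219 to 575 TPM from E5.5. At E4.5 and E5.5 most of this was the keratin gene Krt18, with means of 1666 and 218.6 TPM. In bulk samples, fewer cells of a type and less RNA per cell cannot be told apart, and the part of these other cells in the stage differences was not tested.

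Of the 9 genes, 7 lie on chromosome 17 (mm10), where Tapbp (chr17:33915899-33929288, plus strand), H2-K1 (chr17:33996017-34000333, minus), Psmb9 (chr17:34181988-34187764, minus), Tap1 (chr17:34187553-34197225, plus), Psmb8 (chr17:34197721-34201454, plus), Tap2 (chr17:34203527-34216321, plus) and H2-D1 (chr17:35262730-35267499, plus) belong to the major histocompatibility complex. B2m is at chr2:122147686-122153083 (plus) and Nlrc5 at chr8:94434356-94527272 (plus). All are annotated as protein-coding. RefSeq (GRCm38.p6) gave promoter windows for 7 of the 9, not for Tap2 and Nlrc5. The 250 bases before the start are shown for the class I chains B2m, which was called between cultures, and H2-K1, which was not. The genes were not tested against each other. H2-K1 has 2 RefSeq starts here, and the window of the upstream one is shown. Capitals mark matches to the 5 motifs searched on either strand, which were GAAANNGAA and GAANNGAAA (interferon-stimulated response element, the latter spelling added after the windows were read), GGGNNTNCC (kappa B), TGACG (cyclic AMP response element) and CCAAT.
B2m, chr2:122147437-122147686, plus strand: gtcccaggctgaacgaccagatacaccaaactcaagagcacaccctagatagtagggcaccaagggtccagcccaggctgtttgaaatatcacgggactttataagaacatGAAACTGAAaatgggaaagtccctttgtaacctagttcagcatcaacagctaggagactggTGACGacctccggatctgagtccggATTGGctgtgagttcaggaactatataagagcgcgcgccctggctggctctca
H2-K1, chr17:34000348-34000597, minus strand: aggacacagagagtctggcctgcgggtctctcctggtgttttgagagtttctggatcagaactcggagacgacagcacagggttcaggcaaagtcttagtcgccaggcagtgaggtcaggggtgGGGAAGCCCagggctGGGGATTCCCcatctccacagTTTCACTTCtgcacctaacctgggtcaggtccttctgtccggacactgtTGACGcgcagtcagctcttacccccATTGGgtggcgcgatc

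The promoters of H2-K1 and H2-D1 held the same series of matches in the same order, a kappa B match (GGGAAGCCC), overlapping kappa B matches at GGGGATTCC and GGGATTCCC, TTTCACTTC (GAANNGAAA on the other strand), TGACG and 1 CCAAT match on each strand. The last lies 8 to 12 bases after the start in the H2-K1 window shown. B2m held GAAACTGAA, TGACG and CCAAT and no kappa B match. The starts of Tap1 and Psmb9 lie 226 bases apart on opposite strands, so that their 300-base windows share 275 bases, with 1 kappa B, 1 TGACG and 1 CCAAT match. Tapbp held CCAAT alone, and Psmb8 none of the motifs. Among 32817 promoter windows, GAAANNGAA was found in 8.55%, GAANNGAAA in 7.52%, GGGNNTNCC in 16.4%, TGACG in 20.8% and CCAAT in 37.4%. These letters are a description of the windows and not evidence of binding.

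Among class I chains, B2m was called in 3 of the 6 in vitro comparisons, and the heavy chains in none (the limma fit gave no unadjusted p below 0.05 for either). B2m, the light chain, stood at 101, 96.2 and 103 TPM in 2D EpiSCs, at 46.8, 62.3 and 57.3 TPM in embryo-derived 3D EpiSCs, at 41.2, 35.4 and 54.0 TPM in ESC-derived 3D EpiSCs and at 30.2, 27.4 and 20.1 TPM in EpiLCs. The 2D EpiSCs were above all other cultures, the EpiLCs below all, and the 3D lines overlapped. H2-K1 varied more between replicates, with 75.2, 74.9 and 149.6 TPM in ESC-derived 3D EpiSCs, 50.4, 71.0 and 79.2 TPM in embryo-derived 3D EpiSCs, 92.9, 94.9 and 138 TPM in 2D EpiSCs and 88.2, 88.8 and 44.9 TPM in EpiLCs. H2-D1 was measured at 11.6, 12.8 and 27.1 TPM in ESC-derived 3D EpiSCs, at 17.0, 30.6 and 32.6 TPM in embryo-derived 3D EpiSCs, at 21.8, 21.2 and 26.96 TPM in 2D EpiSCs and at 21.9, 27.8 and 12.03 TPM in EpiLCs. For both heavy chains, groups next to each other in mean level overlapped, although every 2D EpiSC library of H2-K1 stood above every embryo-derived 3D EpiSC and every EpiLC library. In ESC-derived 3D EpiSCs the high value of both belonged to replicate 3, and in EpiLCs the low value of both to replicate 3.

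**Figure D1:**
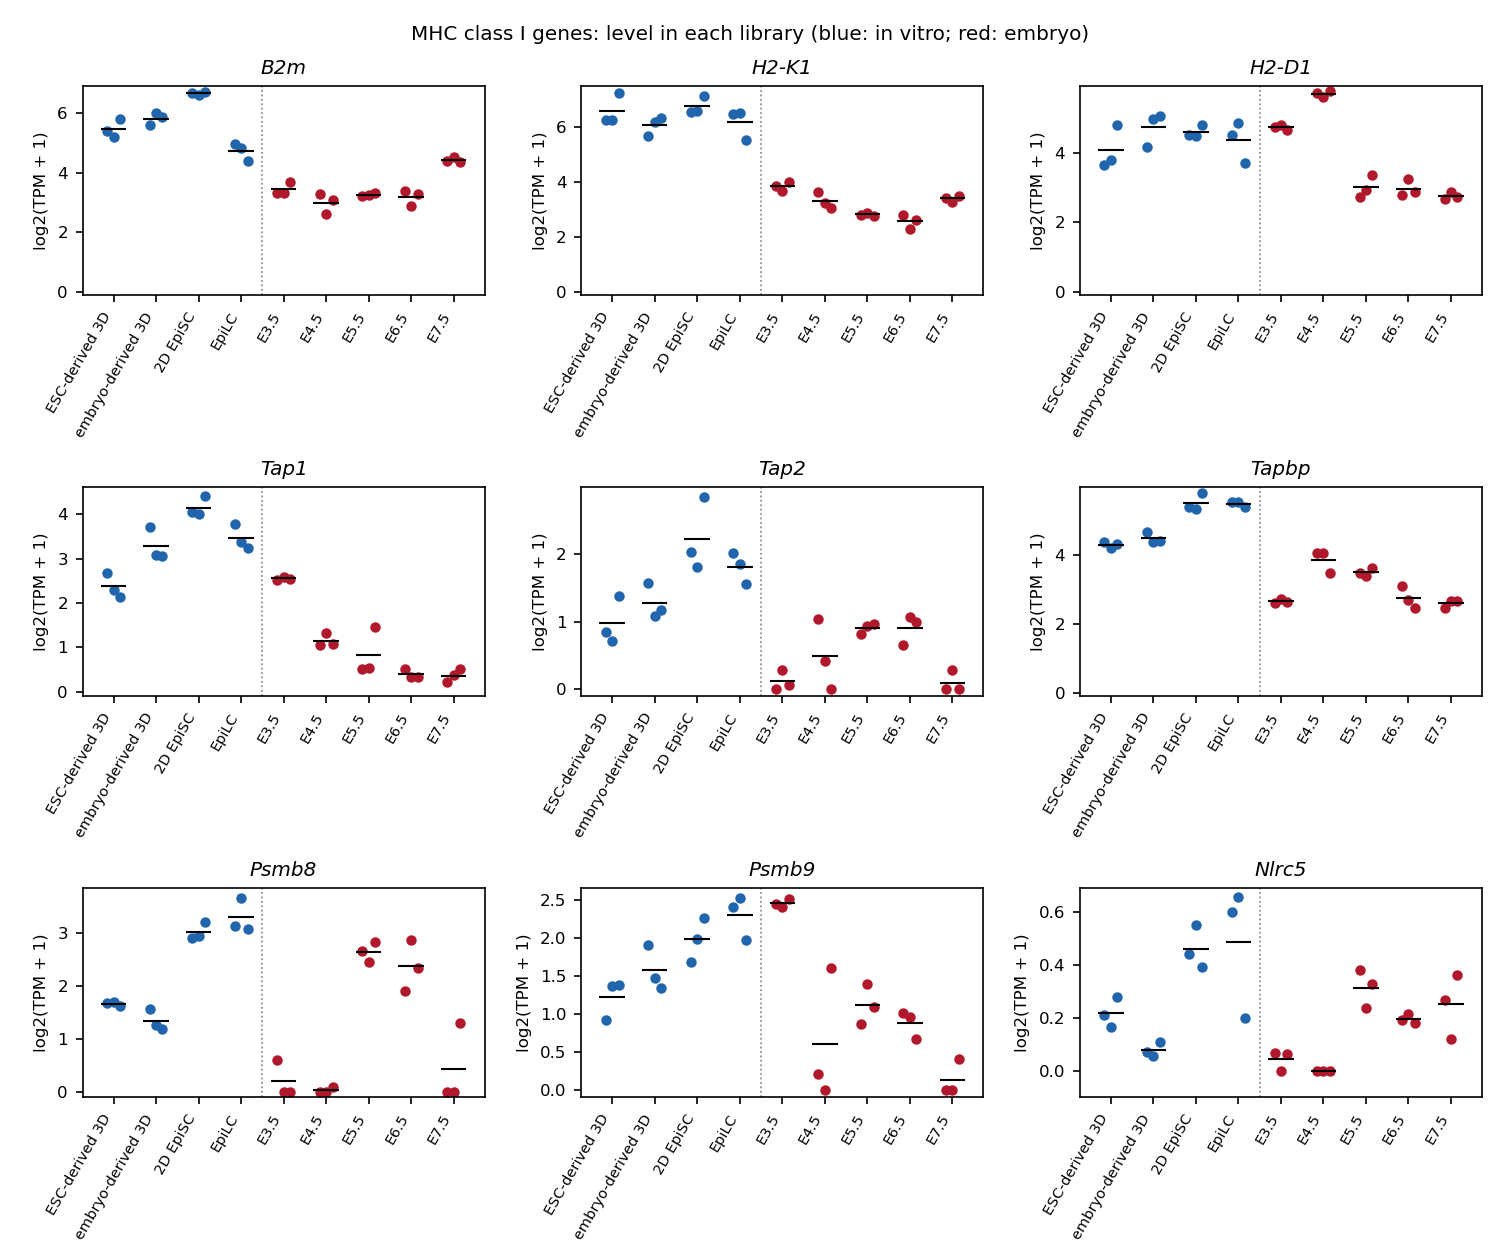
Level of each class I gene in each library as log2(TPM + 1), by group, with points for the 3 libraries of a group, a bar for their mean, and a dotted line between kits. B2m is highest in 2D EpiSCs (96.2 to 103 TPM), H2-D1 in the E4.5 epiblast (48.0 to 53.6 TPM), and Psmb8 is at or near 0 at E3.5 and E4.5 but 4.49 to 6.15 TPM at E5.5.

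The 3D cultures were first set against conventional 2D EpiSCs, from which they differ in medium and in dimension together, and in the embryo-derived line also in origin and genetic background. In ESC-derived 3D EpiSCs, 5 of the 8 tested genes fell and none rose, where 9.25% of all genes tested were called lower and 0.633% higher. Tap2, which is among the 5, passed the filter through 2D EpiSCs and EpiLCs and so had to differ. The 5 were B2m, Tap1, Tap2, Tapbp and Psmb8, so the light chain, all 3 transport and loading genes and 1 immunoproteasome subunit were among them. In embryo-derived 3D EpiSCs, 2 of 8 fell (Tapbp and Psmb8) and none rose, beside 7.75% lower and 1.07% higher of all genes. Psmb8 passed the filter through the other cultures and not through embryo-derived 3D EpiSCs, so the filter favoured its fall there. The median difference of the 8 was -1.21 and -0.85 log2 units, beside -0.21 and -0.08 over all genes tested. These medians carry the same limit, since Tap2, Psmb8 and Psmb9 did not pass the filter through every culture. These comparisons share the 2D EpiSC libraries. Trophoblast markers summed to 284 to 393 TPM in 2D EpiSCs, 148 to 235 TPM in ESC-derived and 119 to 130 TPM in embryo-derived 3D EpiSCs. Most of the 2D EpiSC sum was the keratin gene Krt18 (336 TPM on average), against 7.78 TPM for Gata3. Of 4 tested trophoblast markers, 3 and 2 were called lower (Gata3 in both, -2.73 and -2.51). Endoderm markers summed to 5.89 to 14.8, 0.485 to 2.31 and 3.78 to 5.97 TPM (Gata4 lower in both, -2.83 and -2.49). Of the 2 endoderm markers tested, the other was not called in the ESC-derived line and was called higher in the embryo-derived line. Fibroblast markers summed to 21.6 to 23.2, 13.6 to 17.02 and 7.29 to 8.45 TPM (Col1a1 lower in both, -1.74 and -1.82). The part of such cells in the class I differences was not tested.

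Tap1, a subunit of the peptide transporter, showed the greatest difference of the 8 between ESC-derived 3D and 2D EpiSCs. It stood at 5.42, 3.92 and 3.40 TPM against 15.4, 15.1 and 20.2 TPM, with no overlap, which is 3.98-fold lower (log2 difference -1.78 ± 0.21 SE, limma adjusted p = 9.25e-05). In embryo-derived 3D EpiSCs Tap1 was at 12.2, 7.52 and 7.37 TPM, below every 2D EpiSC library, but its difference of -0.86 (95% interval -1.32 to -0.40, adjusted p = 0.00936) was short of the size set for a call. Without embryo-derived replicate 1, its highest library, the difference was -1.07 and the gene was called. Tap2, the partner subunit, was far lower, at 0.797, 0.637 and 1.61 TPM in ESC-derived and 1.97, 1.11 and 1.26 TPM in embryo-derived 3D EpiSCs against 3.09, 2.51 and 6.23 TPM in 2D EpiSCs. Both 3D lines lay below the 2D EpiSCs without overlap. The ESC-derived difference of -1.25 ± 0.26 (adjusted p = 0.00312) shrank to -0.94 without 2D EpiSC replicate 3, which ended the call. The embryo-derived difference of -0.96 ± 0.26 (adjusted p = 0.0160) was not called, yet it passed without embryo-derived replicate 1 (-1.11), 2D EpiSC replicate 1 (-1.06) or 2D EpiSC replicate 2 (-1.17).

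Tapbp, which encodes tapasin, was at 19.5, 17.4 and 18.8 TPM in ESC-derived 3D EpiSCs, 24.3, 19.8 and 20.1 TPM in embryo-derived 3D EpiSCs and 40.4, 39.3 and 54.6 TPM in 2D EpiSCs. It was lower in both 3D lines, by 2.41-fold and 2.09-fold (log2 difference -1.21 ± 0.13, limma adjusted p = 5.23e-05, and -1.02 ± 0.13, adjusted p = 0.000156). The embryo-derived call is at the edge of the size required. It was lost without embryo-derived replicate 2 (-0.97), embryo-derived replicate 3 (-0.98) or 2D EpiSC replicate 3 (-0.87), and a rescaling of TPM by median-of-ratios factors also ended it (-0.93). That rescaling removed the shift of the median of all genes, and under it B2m (-0.98) and Tapbp (-0.997) in ESC-derived 3D EpiSCs were no longer called either.

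Psmb8, the immunoproteasome subunit that replaces Psmb5, was lower in both 3D lines than in 2D EpiSCs. It stood at 2.19, 2.25 and 2.11 TPM in ESC-derived 3D EpiSCs, at 1.96, 1.41 and 1.29 TPM in embryo-derived 3D EpiSCs and at 6.502, 6.70 and 8.32 TPM in 2D EpiSCs. The groups did not overlap, and the log2 differences were -1.35 ± 0.16 (adjusted p = 8.75e-05) and -1.68 ± 0.16 (adjusted p = 1.51e-05) in the limma fit. Psmb9, which replaces Psmb6, had 0.899, 1.59 and 1.60 TPM in ESC-derived 3D EpiSCs, 2.75, 1.77 and 1.54 TPM in embryo-derived 3D EpiSCs and 2.23, 2.98 and 3.81 TPM in 2D EpiSCs. Its differences of -0.76 (95% interval -1.21 to -0.31) and -0.41 (-0.86 to 0.04) were not called, although with a pseudocount of 0.1 the former was -1.10 and called. B2m fell by 1.20 ± 0.18 log2 units in ESC-derived 3D EpiSCs (2.30-fold, adjusted p = 0.000361), and its difference in embryo-derived 3D EpiSCs was -0.85 ± 0.18 (1.80-fold, adjusted p = 0.00353), not called for size. H2-K1 (-0.17, 95% interval -0.88 to 0.53, and -0.69, -1.39 to 0.01) and H2-D1 (-0.51, -1.29 to 0.26, and 0.14, -0.63 to 0.91) were not called, with intervals that still hold a change past 1 log2 unit in 2 of the 4 cases.

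**Figure D2:**
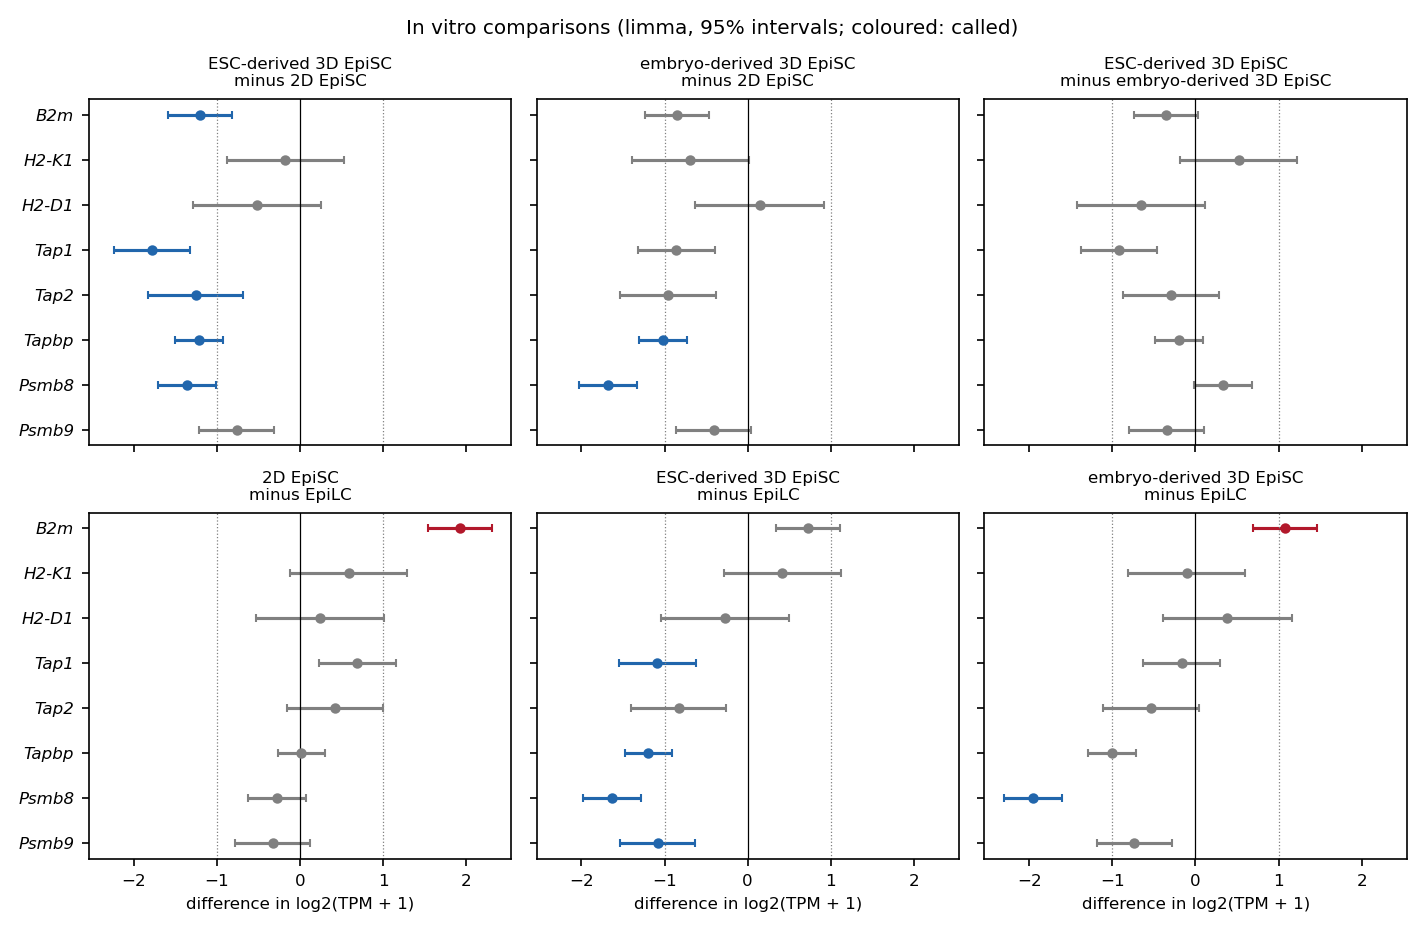
Difference in log2(TPM + 1) for 8 class I genes in the 6 in vitro comparisons, with points for the limma estimate, bars for 95% intervals, blue for called lower, red for called higher and grey for not called, and dotted lines at the size required for a call. In ESC-derived 3D EpiSCs against 2D EpiSCs 5 genes are blue, and in 2D EpiSCs against EpiLCs B2m is red, while H2-K1 and H2-D1 are grey in every panel.

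Between the 3D lines, of ESC and of embryo origin, none of the 8 genes was called, where 1.98% of all genes tested were called higher and 1.98% lower in the ESC-derived line. In this limma comparison 1 of the 8 had an unadjusted p below 0.05, which was Tap1 (-0.92 ± 0.21, adjusted p = 0.0126, ESC-derived 3.40 to 5.42 TPM against 7.37 to 12.2 TPM). Tap1 fell short of the size for a call and passed it without ESC-derived replicate 1 (-1.07), embryo-derived replicate 2 (-1.02) or embryo-derived replicate 3 (-1.03). H2-D1, at -0.66, was called without ESC-derived replicate 3 (-1.02, adjusted p = 0.0289). The intervals of the other genes reached from -1.43 for H2-D1 to 1.22 for H2-K1, and so held changes past 1 log2 unit for both heavy chains. Origin and genetic background changed together in this comparison.

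EpiLCs, the formative state reached within 48 h, held the lowest B2m of the 4 cultures and higher Tap1, Tapbp and immunoproteasome transcripts than ESC-derived 3D EpiSCs. B2m was 3.87-fold higher in 2D EpiSCs than in EpiLCs (log2 difference 1.93 ± 0.18, limma adjusted p = 3.22e-06), the only 1 of the 8 called in this comparison, beside 15.2% higher and 5.14% lower of all genes tested. Embryo-derived 3D EpiSCs exceeded EpiLCs in B2m as well (1.08 ± 0.18, 2.14-fold, adjusted p = 0.000304), although the call was lost without embryo-derived replicate 2 (0.99) or EpiLC replicate 3 (0.91) and after rescaling (0.95). For ESC-derived 3D EpiSCs the B2m difference was 0.73 ± 0.18 (adjusted p = 0.00575) and not called, with all 3 libraries above all EpiLC libraries.

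The transport, loading and proteasome genes called against EpiLCs were lower, where B2m was higher. In ESC-derived 3D EpiSCs against EpiLCs, 4 of 8 fell (Tap1, Tapbp, Psmb8 and Psmb9) and none rose, beside 7.11% lower and 5.33% higher of all genes. Psmb9, which is among the 4, passed the filter through EpiLCs and not through ESC-derived 3D EpiSCs, so the filter favoured its fall. EpiLCs held 12.6, 9.36 and 8.41 TPM of Tap1, 45.6, 44.9 and 40.6 TPM of Tapbp, 7.82, 11.8 and 7.51 TPM of Psmb8 and 4.32, 4.80 and 2.94 TPM of Psmb9, and for each of the 4 the ESC-derived libraries lay below all of these. The log2 differences were -1.09 ± 0.21 for Tap1 (adjusted p = 0.00152), -1.19 ± 0.13 for Tapbp (2.33e-05), -1.63 ± 0.16 for Psmb8 (8.83e-06) and -1.08 ± 0.21 for Psmb9 (0.00134). Tap1 and Psmb9 were close to the size required. Tap1 lost its call without ESC-derived replicate 3 (-0.97) or EpiLC replicate 1 (-0.93), and Psmb9 without ESC-derived replicate 1 (-0.93) or EpiLC replicate 2 (-0.97), while Tap2, with EpiLC values of 3.04, 2.62 and 1.96 TPM and a difference of -0.83, gained one without ESC-derived replicate 3 (-1.03). In embryo-derived 3D EpiSCs against EpiLCs 1 of 8 fell (Psmb8, 5.82-fold, -1.96 ± 0.16, adjusted p = 1.16e-06), beside 8.28% of all genes lower and 10.5% higher. Psmb8 passed the filter through EpiLCs and not through embryo-derived 3D EpiSCs, so its fall was favoured too. Tapbp came to -0.999 ± 0.13 (adjusted p = 6.19e-05), just short of a call, and was called without embryo-derived replicate 1 (-1.09) or EpiLC replicate 3 (-1.05). Median differences of the 8 were 0.33 for 2D EpiSCs, -0.96 for ESC-derived and -0.35 for embryo-derived 3D EpiSCs against EpiLCs, beside 0.18, 0.01 and 0.10 over all genes, in comparisons that share the EpiLC libraries. The filter limits these medians as well, since Tap2, Psmb8 and Psmb9 did not pass through every culture.

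Nlrc5 was low in all cultures. It stood at 0.157, 0.122 and 0.212 TPM in ESC-derived 3D EpiSCs, at 0.0504, 0.0392 and 0.0772 TPM in embryo-derived 3D EpiSCs, at 0.357, 0.463 and 0.312 TPM in 2D EpiSCs and at 0.516, 0.577 and 0.149 TPM in EpiLCs. The embryo-derived line was below all other in vitro libraries and the ESC-derived line below all 2D EpiSCs, while 2D EpiSCs and EpiLCs overlapped. Tested without the filter on low values, among 17323 genes, its difference from 2D EpiSCs was -0.38 ± 0.11 in embryo-derived 3D EpiSCs (limma adjusted p = 0.0242) and -0.24 ± 0.11 in ESC-derived 3D EpiSCs (adjusted p = 0.103), both far from a call at this level.

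Within a library, the ratio of heavy to light chain does not depend on scaling between libraries. The sum of H2-K1 and H2-D1 was 3.58 ± 0.715 times B2m in EpiLCs (SD, n = 3), 2.62 ± 0.595 times in ESC-derived 3D EpiSCs, 1.67 ± 0.259 times in embryo-derived 3D EpiSCs and 1.31 ± 0.253 times in 2D EpiSCs. The ranges of ESC-derived 3D EpiSCs and EpiLCs overlapped (2.11 to 3.27 and 2.83 to 4.26), as did those of embryo-derived 3D EpiSCs and 2D EpiSCs (1.44 to 1.95 and 1.13 to 1.60). H2-K1 made up 85.6% ± 0.980 of the heavy chain sum in ESC-derived and 71.8% ± 2.55 in embryo-derived 3D EpiSCs, and their ranges (84.7 to 86.6% and 69.9 to 74.7%) were apart. The 2D EpiSCs (82.1% ± 1.37) and EpiLCs (78.4% ± 2.05) lay between them. These ratios are descriptions without a test. Class I heavy chain genes vary between mouse strains and have relatives of similar sequence. In the annotation, 0.957% of the 100-base stretches of H2-K1 transcripts and 3.59% of those of H2-D1 recur exactly in other genes (H2-Q and H2-T genes among them), and the part of strain and of such sharing in these levels was not tested.

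**Figure D3:**
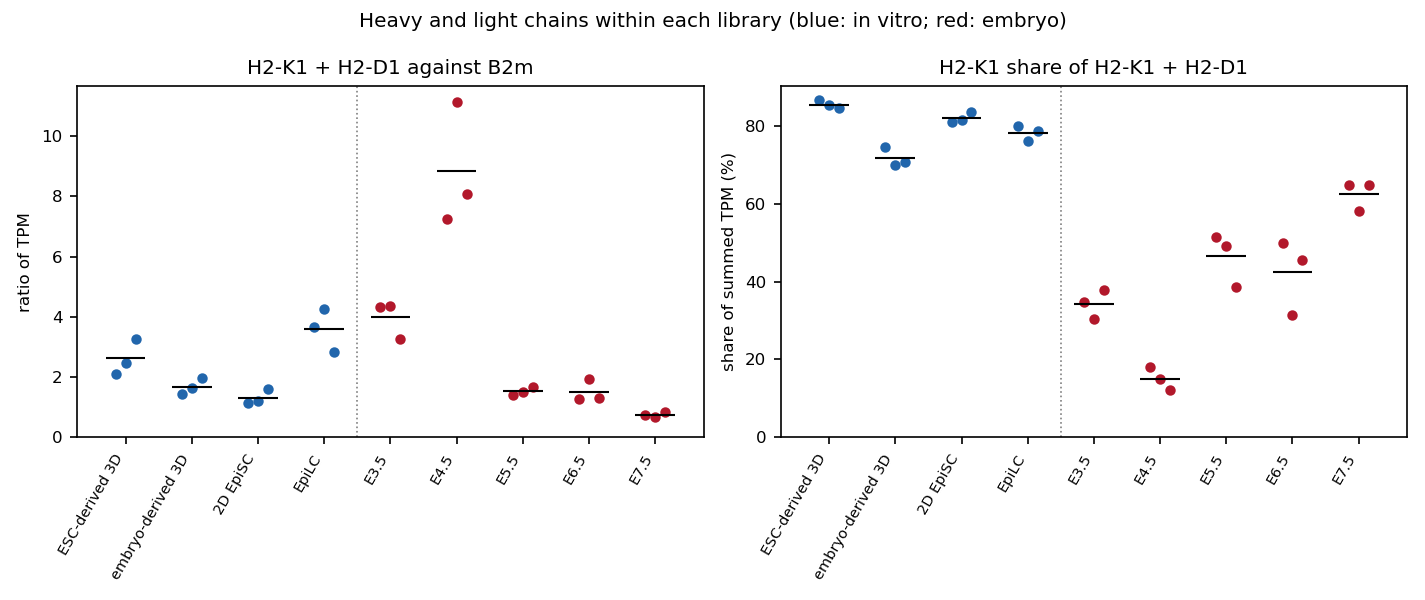
Left, summed TPM of H2-K1 and H2-D1 divided by that of B2m in each library, and right, H2-K1 as a percentage of the heavy chain sum, by group, with a bar for the mean of 3 libraries and a dotted line between kits. The E4.5 epiblast has the highest ratio to B2m (7.25 to 11.1) and the lowest H2-K1 share (12.1 to 18.0%).

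In the embryo, H2-K1 was at lower TPM than in every culture library, and so was B2m apart from 2 of the 3 E7.5 libraries, which passed the lowest EpiLC library. H2-D1 lay within the culture range at E3.5 and above it at E4.5. B2m ranked at percentile 60.3 to 74.8 of autosomal protein-coding genes in vivo and 73.2 to 92.7 in vitro, and H2-K1 at 56.1 to 71.1 and 84.4 to 95.5. Kit and origin changed together here, so no test was run. The stages were compared step by step, each with the stage before it.

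H2-D1, the second heavy chain, was highest at E4.5 and lower from E5.5 on. It was at 25.6, 26.9 and 24.2 TPM in the E3.5 ICM, 51.6, 48.0 and 53.6 TPM in the E4.5 epiblast, 5.67, 6.55 and 9.32 TPM at E5.5, 5.96, 8.41 and 6.26 TPM at E6.5 and 5.34, 6.29 and 5.56 TPM at E7.5. Every E4.5 library stood above every E3.5 library, and both stages above all later ones, which overlapped among themselves. From E4.5 to E5.5 it fell by 2.69 ± 0.15 log2 units (7.11-fold, limma adjusted p = 3.05e-09). The step from E3.5 to E4.5 was 0.97 ± 0.15 (2.00-fold, adjusted p = 9.86e-05), short of the size for a call, and it passed without E3.5 replicate 2 (1.01) or E4.5 replicate 2 (1.01). Isolation changed at both steps, and its part, like that of mouse line and of stretches shared with other genes, was not tested.

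H2-K1, its neighbour in function, took another course. It was at 13.6, 11.8 and 14.8 TPM at E3.5, 11.3, 8.52 and 7.41 TPM at E4.5, 6.04, 6.37 and 5.89 TPM at E5.5, 5.98, 3.87 and 5.24 TPM at E6.5 and 9.82, 8.77 and 10.3 TPM at E7.5. None of its 4 steps was called, with differences of -0.53, -0.49, -0.25 and 0.83 (adjusted p = 0.00943, 0.0124, 0.321 and 0.000496). The H2-K1 share of the heavy chain sum was therefore 34.4% ± 3.78 at E3.5, 15.1% ± 2.94 at E4.5, 46.5% ± 6.86 at E5.5, 42.4% ± 9.69 at E6.5 and 62.6% ± 3.79 at E7.5 (SD, n = 3). E4.5 was below and E7.5 above all other stages in this share, while E6.5 overlapped both E3.5 and E5.5.

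B2m stayed between 5.07 and 11.97 TPM from E3.5 to E6.5, where every E3.5 library was above every E4.5 library (-0.46, limma adjusted p = 0.0371, not called for size) and E4.5, E5.5 and E6.5 overlapped, and stood at 20.2, 22.03 and 19.3 TPM at E7.5. This last step was 1.24 ± 0.17 (2.49-fold, limma adjusted p = 5.56e-05), and its size was 0.92 after rescaling, which ended the call. Over the same step the endothelial and primitive blood markers went from 12.3 to 14.8 TPM to 41.5 to 42.03 TPM, the fibroblast markers from 4.26 to 6.49 TPM to 20.4 to 23.01 TPM, the trophoblast markers from 249.9 to 278 TPM to 548 to 575 TPM, and the epiblast markers from 1748 to 1856 TPM to 699 to 719 TPM. Tal1 and Kdr of the blood and endothelial list (2.61 and 2.57) and Col1a1 (2.67) were called higher. Of 6 tested trophoblast markers, 3 were called higher (Cdx2, Hand1 and Gata3) and 1 lower (Elf5, -2.27). The part of other cell types in the B2m step was not tested. The sum of heavy chains per B2m went from 8.83 ± 2.05 at E4.5 to 1.53 ± 0.132 at E5.5 and 0.752 ± 0.0694 at E7.5.

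The transport and loading genes parted at E4.5. Tap1 was at 4.75, 5.02 and 4.84 TPM at E3.5 and at 1.07, 1.51 and 1.11 TPM at E4.5, a fall of 1.40 ± 0.20 log2 units (3.95-fold, adjusted p = 4.37e-05). Later stages had 0.428, 0.449 and 1.73 TPM (E5.5), 0.432, 0.260 and 0.253 TPM (E6.5) and 0.155, 0.297 and 0.417 TPM (E7.5), and neighbouring stages overlapped from E4.5 on. Tapbp rose over the same step, from 5.11, 5.59 and 5.16 TPM to 15.6, 15.4 and 10.07 TPM (2.59-fold, 1.20 ± 0.17, limma adjusted p = 4.72e-05). It was then 10.2, 9.35 and 11.3 TPM at E5.5, 7.55, 5.45 and 4.47 TPM at E6.5 and 4.53, 5.38 and 5.34 TPM at E7.5, with no later step called. Tap2 did not exceed 1.11 TPM in any in vivo library and was listed at 0 in 1 library each of E3.5 and E4.5 and in 2 of E7.5, against 0.774 to 0.955 TPM at E5.5 and 0.575 to 1.11 TPM at E6.5.

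The immunoproteasome subunits were high at different stages. Psmb8 was at 0.515, 0 and 0 TPM at E3.5, 0, 0 and 0.0634 TPM at E4.5, 5.37, 4.49 and 6.15 TPM at E5.5, 2.77, 6.30 and 4.10 TPM at E6.5 and 0, 0 and 1.47 TPM at E7.5. All libraries of E5.5 and E6.5 stood above all others. It rose from E4.5 to E5.5 by 2.63 ± 0.32 on the log2(TPM + 1) scale (limma adjusted p = 7.68e-06) and fell by 1.94 ± 0.32 from E6.5 to E7.5 (adjusted p = 0.000217). Psmb9 was at 4.46, 4.35 and 4.72 TPM at E3.5 and at 0.158, 0 and 2.04 TPM at E4.5, and fell by 1.86 ± 0.31 (adjusted p = 0.000207). From there it was 0.821, 1.62 and 1.13 TPM at E5.5, 1.02, 0.940 and 0.587 TPM at E6.5 and 0, 0 and 0.319 TPM at E7.5. The E4.5 to E5.5 difference of 0.51 was not called, and without E4.5 replicate 3, the highest library of that stage, it was 1.01 and called (limma adjusted p = 0.000191). Of 121 ribosomal, proteasome and RNA polymerase II genes, the ones listed at 0 in any library were Psma8, Rpl10l, Rpl39l and Rpl3l, and the 0 values of Psmb8 and Psmb9 are given as listed.

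The step from E3.5 to E4.5 had 1 of 7 genes higher (Tapbp) and 2 lower (Tap1 and Psmb9), where 5.88% and 11.9% of all genes tested were called. Both lower genes passed the filter through the E3.5 libraries, where they are high, and Psmb8 through E5.5 and E6.5, so nothing is read from these counts against the shares. From E4.5 to E5.5, 1 was higher (Psmb8) and 1 lower (H2-D1), beside 14.9% and 9.47%. Over this step the endoderm markers went from 138 to 161 TPM to 784 to 842 TPM and the trophoblast markers from 2026 to 2164 TPM to 219 to 249 TPM, and their part in both calls was not tested. Between E5.5 and E6.5 none was called by limma in either direction, where 0.715% of all genes were higher and 0.480% lower, and 2 of the 7 (Tap1 and Tapbp) had an unadjusted p below 0.05. From E6.5 to E7.5, 1 was higher (B2m) and 1 lower (Psmb8), beside 10.6% and 1.94%. Median differences of the 7 were -0.46, -0.32, -0.25 and -0.14 over the 4 steps, beside -0.10, 0.16, -0.06 and 0.31 over all genes. The limit from the filter holds for the later steps and for these medians too. Leaving out any E3.5 library took Tap1 out of the test, since 2 libraries above 2 TPM remained, and left 1 gene called lower in the first step. Nlrc5 was listed at 0 in all E4.5 libraries and in 1 of E3.5, and was 0.300, 0.177 and 0.255 TPM at E5.5, 0.133 to 0.160 TPM at E6.5 and 0.0877 to 0.285 TPM at E7.5.

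**Figure D4:**
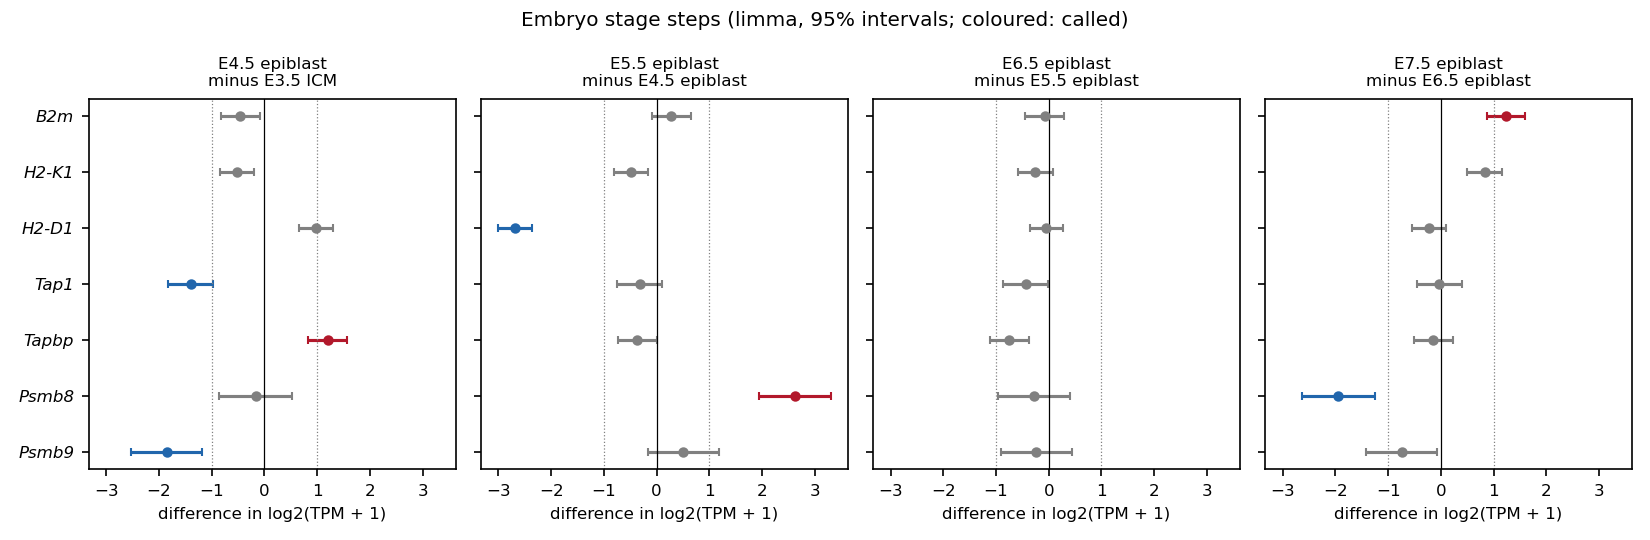
Difference in log2(TPM + 1) of 7 class I genes over the 4 steps between neighbouring stages, with limma estimates, 95% intervals, colours for calls (blue lower, red higher, grey not called) and dotted lines at the size required. H2-D1 (-2.69) and Psmb8 (2.63) move furthest on this scale, both between E4.5 and E5.5, and no gene is coloured between E5.5 and E6.5.

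How far the inducible subunits replaced their constitutive counterparts in the transcript pool was measured as a share within a library. Psmb8 made up 4.45% ± 0.487 of the Psmb8 and Psmb5 sum in EpiLCs, 3.46% ± 0.234 in 2D EpiSCs, 0.979% ± 0.0227 in ESC-derived and 0.770% ± 0.283 in embryo-derived 3D EpiSCs (SD, n = 3). The lowest EpiLC library (4.06%) was above the highest 2D EpiSC library (3.67%), and both groups were above both 3D lines, which overlapped. In the embryo the share was 5.92% ± 0.599 at E5.5, 3.88% ± 1.60 at E6.5 and no more than 1.27% in any library of another stage. Psmb5, the counterpart, ranged over 174 to 232 TPM in vitro and 75.8 to 135 TPM in vivo.

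Psmb9 made up at most 1.13% of the Psmb9 and Psmb6 sum in all libraries but those of E3.5, where its share was 2.27% ± 0.130. In vitro its share was 0.958% ± 0.206 in EpiLCs, 0.732% ± 0.157 in 2D EpiSCs, 0.416% ± 0.141 in embryo-derived and 0.246% ± 0.0767 in ESC-derived 3D EpiSCs. Psmb10, the third inducible subunit and no member of the 9, had the highest share of the 3 in every group but E3.5, with 23.9% ± 4.01 of the Psmb10 and Psmb7 sum in EpiLCs against 6.95 to 9.34% as means of the other cultures. In vivo its share went from 1.95% ± 0.419 at E3.5 to 7.43% ± 1.57 at E4.5, 12.03% ± 0.387 at E5.5, 11.8% ± 1.58 at E6.5 and 6.34% ± 0.728 at E7.5. The groups differed in all 6 tests, by a one-sided exact permutation test over the 369600 groupings in vitro (adjusted p = 0.000740 for Psmb8, 0.00265 for Psmb9 and 0.00166 for Psmb10) and by 100000 permutations in vivo (adjusted p = 0.000740, 0.00286 and 0.000180), with adjustment over the 6.

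**Figure D5:**
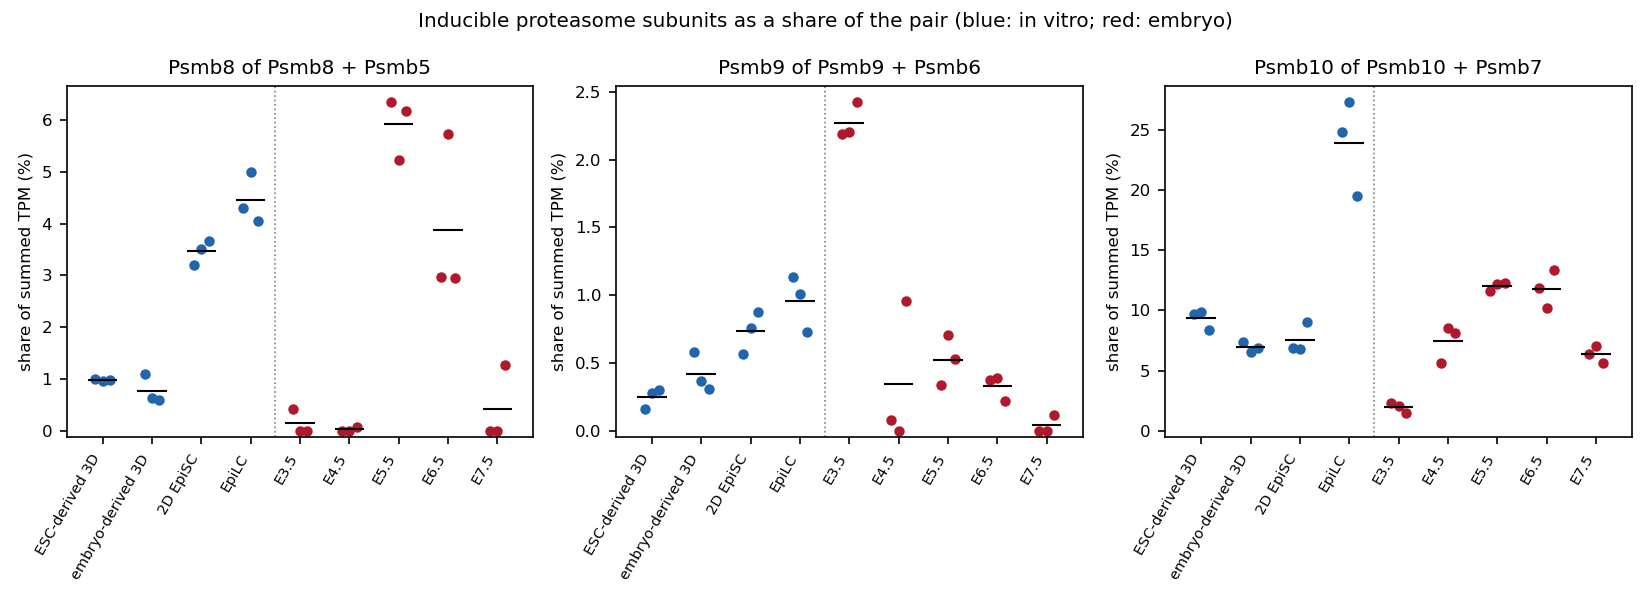
Share (%) of each inducible proteasome subunit in the summed TPM of itself and its constitutive counterpart, in each library by group, with a bar for the mean of 3 libraries and a dotted line between kits. Psmb8 peaks at E5.5 (5.23 to 6.34%), Psmb9 at E3.5 (2.19 to 2.42%) and Psmb10 in EpiLCs (19.5 to 27.4%).

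Other genes of the pathway were followed as lists. Of 8 further proteasome genes (the 3 counterparts, Psmb10, the activators Psme1, Psme2 and Psme3, and Pomp), none was called by limma between ESC-derived 3D and 2D EpiSCs (3 with an unadjusted p below 0.05) or between embryo-derived 3D and 2D EpiSCs (2), and Psmb10 was lower in 2D EpiSCs (-1.95), embryo-derived 3D EpiSCs (-1.89) and ESC-derived 3D EpiSCs (-1.39) than in EpiLCs, where it had 110.2 TPM on average. Psmb10 rose at E4.5 (1.63), and Psme1 and Psme2, subunits of the interferon-inducible activator, rose from E4.5 to E5.5 (1.31 and 1.83, from means of 70.3 and 20.9 TPM to 173 and 75.9 TPM). Among 6 genes of peptide loading, the chaperones Calr, Canx, Pdia3 and Hspa5 were called in none of the comparisons. Tapbpl, a tapasin relative, was higher in EpiLCs than in 2D EpiSCs and embryo-derived 3D EpiSCs (-1.24 and -1.70), and the trimming enzyme Erap1 rose at E5.5 (1.90) and fell at E7.5 (-1.01).

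Of 26 other class I and class I-like genes, 11 were tested in vitro. Against EpiLCs, 2D EpiSCs had 4 higher (H2-Q2, H2-T23 and H2-Q10 among them, at 1.24, 1.23 and 1.13) and 3 lower, of which the CD1 gene Cd1d1 was furthest (-2.10), beside 15.2% and 5.14% of all genes. Cd1d1, H2-M3 and Raet1e were lower than in EpiLCs in both 3D lines (-2.31 to -1.33). The ESC-derived line had 3 and the embryo-derived line 4 called lower and none higher, beside 7.11% and 8.28% of all genes lower and 5.33% and 10.5% higher. With untested genes counted, 12 of the list were above 2 TPM in all EpiLC libraries, against 10 in 2D EpiSCs, 9 in ESC-derived and 7 in embryo-derived 3D EpiSCs. The filter thus favoured genes high in EpiLCs, and nothing is read from these counts. Embryo-derived 3D EpiSCs had 4 lower than 2D EpiSCs (H2-Q6, H2-Q7, H2-Q2 and H2-T23, -2.94 to -1.24), ESC-derived 3D EpiSCs had 1 (H2-T23, -1.58), and H2-Q6 and H2-Q7 were lower in the embryo-derived than in the ESC-derived line (by 2.17 and 1.22). Of all genes, 7.75% were lower in the embryo-derived and 9.25% in the ESC-derived line than in 2D EpiSCs. With 10 genes above 2 TPM in 2D EpiSCs against 9 and 7 in the 3D lines, the filter also favoured genes high in 2D EpiSCs. Nothing is read from these counts either. Reads may be split among related H2-Q and H2-T genes, which was not measured for these genes. In vivo, 9 were tested. H2-Q4 rose at E4.5 (2.20), Raet1e fell there (-2.85), and at E5.5 H2-T22 (2.21), H2-M3 (1.62) and H2-Q10 (1.33) rose while H2-M5 fell (-2.59). H2-Q10 fell again at E6.5 (-1.04).

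Of 16 factors that bind class I promoters, Irf1 and Nfkb1 were called in the most comparisons, and in opposite directions against EpiLCs. Irf1, the interferon regulatory factor, was at 97.6 ± 12.2 TPM in EpiLCs, 48.3 ± 13.3 TPM in 2D EpiSCs, 23.7 ± 0.908 TPM in ESC-derived and 21.9 ± 4.33 TPM in embryo-derived 3D EpiSCs (SD, n = 3). Its differences from EpiLCs were -1.03, -1.99 and -2.12 (limma adjusted p = 0.000504, 4.95e-06 and 1.83e-06). Nfkb1, a kappa B subunit, was higher in all 3 EpiSC cultures (33.5 to 37.8 TPM on average) than in EpiLCs (9.61 ± 2.76 TPM), by 1.73 to 1.90. In vivo, Irf1 rose at E4.5 (2.48, from 2.64 ± 0.778 to 19.2 ± 4.09 TPM) and fell at E7.5 (-1.62), and Nfkb1 rose at E7.5 (1.76, from 6.13 ± 0.306 to 23.2 ± 0.823 TPM). Of the 16 factors, 15 were tested in each kit, and 1 to 3 were called in each comparison, beside shares of all genes up to 15.2% in a direction, except ESC-derived against embryo-derived 3D EpiSCs and E6.5 against E5.5, where limma called none and 5 and 4 had an unadjusted p below 0.05.

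Interferon-stimulated genes summed highest of the cultures in EpiLCs, at 864 to 1050 TPM over the 30 listed genes. The sums were 825 to 840 TPM in 2D EpiSCs, 562 to 679 TPM in ESC-derived and 483 to 509 TPM in embryo-derived 3D EpiSCs. Of 30 listed, 17 were tested, and 12 were lower and none higher in ESC-derived and likewise in embryo-derived 3D EpiSCs than in EpiLCs (7.11% and 8.28% of all genes lower), comparisons that share the EpiLC libraries. Medians over the list were -1.55 and -2.05, beside 0.01 and 0.10 over all genes tested. Ifi35 (-3.13 and -3.45) and Ifitm3 (-2.38 and -4.77) were among the lower genes in both lines. In EpiLCs 17 of the 30 were above 2 TPM in every library, against 14 in 2D EpiSCs, 12 in ESC-derived and 10 in embryo-derived 3D EpiSCs. The filter thus favoured genes high in EpiLCs, and nothing is read from these counts and medians against all genes. The 2D EpiSCs had 8 lower than EpiLCs and 1 higher, Gbp2 (1.40), beside 5.14% lower and 15.2% higher of all genes, with the same limit. Against 2D EpiSCs, 3 were lower in ESC-derived 3D EpiSCs (Gbp2, Ifitm1 and Irgm1) and 7 in embryo-derived 3D EpiSCs, and none was higher. Of all genes, 9.25% and 7.75% were lower and 0.633% and 1.07% higher in these comparisons. With 14 genes above 2 TPM in 2D EpiSCs against 12 and 10 in the 3D lines, the filter also favoured genes high in 2D EpiSCs. Nothing is read from these counts either. Trim25 was listed at 0 in all embryo-derived libraries and at 11.2 to 65.3 TPM in all other in vitro libraries. Of 16 genes of interferon receptors and signalling, 13 were tested, and the receptor Ifngr1 was higher in 2D EpiSCs and in embryo-derived 3D EpiSCs than in EpiLCs (1.44 and 1.32), while Jak2 (1.21) and the feedback inhibitor Socs3 (1.74) were higher in 2D EpiSCs than in EpiLCs. In vivo, 14 stimulated genes were tested. At E4.5, 5 rose (Irgm1 1.95, Samhd1, Ifitm1 and Ddx58 among them), beside 5.88% of all genes. At E5.5, 4 rose and 2 fell, beside 14.9% and 9.47%, and at E7.5 Ifitm1 (3.13) and Eif2ak2 (1.02) rose and Bst2 fell (-1.18), beside 10.6% and 1.94%.

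Class II genes, which immune cells use to present outside antigens, were low. H2-Ab1 reached 17.7 ± 1.04 TPM in 2D EpiSCs against 4.46 ± 4.98, 3.75 ± 1.53 and 0.565 ± 0.329 TPM in 3D EpiSCs of ESC origin, in those of embryo origin and in EpiLCs. It was called lower in both 3D lines than in 2D EpiSCs (-2.15 and -2.02), as was Cd74, the invariant chain (-1.80 and -1.45). These were the 2 called of 4 tested genes of 9 listed, beside 9.25% and 7.75% of all genes lower. In 2D EpiSCs 3 of the 9 were above 2 TPM in every library, against 1 in ESC-derived and 2 in embryo-derived 3D EpiSCs. The filter thus favoured genes high in 2D EpiSCs.

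The genes of most like pattern were found by the root mean square difference of gene-centred log2(TPM + 1), over 12 libraries in vitro and 15 in vivo. In vitro the nearest to B2m were Chrnb1, Timp2 and Klhl5 (0.131, 0.138 and 0.157 log2 units), and Psmb8 was nearest to Pld1, Parp10 and S1pr2 (0.202, 0.236 and 0.262). H2-K1 was nearest to Klc3, Fbxo36 and Ybx2, H2-D1 to Arhgap12, Boc and Gulo, Tap1 to Palld, Pqlc3 and Rb1, Tap2 to Klf9, Ephb3 and Mov10, Tapbp to Frs3, Igfbpl1 and Inf2, and Psmb9 to Abcd4, Padi3 and Apod (0.169 to 0.272). Among the class I genes themselves, Tapbp ranked 6 of 11540 genes in distance from Tap2 (0.266), while the class I gene nearest to B2m, H2-K1, stood at rank 3753. In vivo, over 11880 genes, B2m was nearest to Atat1, Fam149b and Ift140, H2-K1 to Tmem222, Ddrgk1 and Cdan1, H2-D1 to Ptk2b, Errfi1 and Satb1, Tap1 to Ubald2, Zbtb44 and Sema4b, Tapbp to Tent5b, E2f4 and Kdm4c, and Psmb9 to Rhbdf2, Gm14322 and Fam98c (0.173 to 0.355). Psmb8 was nearest to Dlg2, Dnmt3b and Pdlim3 (0.330, 0.390 and 0.448). These distances are descriptions of the libraries of each kit.

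Some values carry a further limit from the annotation. B2m lies wholly within the span of Patl2 on the opposite strand (5398 shared bases), Tap1 and Psmb9 share 212 bases on opposite strands, Psmb8 and Tap2 overlap the antisense gene Gm20496 (2139 and 1923 bases), and Tapbp shares 3422 bases with Zbtb22 on the same strand. Both kits mark strand, but the strand setting of the quantification is not given in the sources used here, and the part of these neighbours was not tested.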

How the data were processed

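RNA abundance was read from the TPM table that the authors deposited for 27 bulk libraries. Before deposit, adapters were removed by cutadapt (2.4), STAR mapped the reads to mm10, and StringTie with GENCODE gene models gave the TPM values of the authors. TPM sum to 1000000 in every library and keep no depth, so counts were not available for the count model the study describes, and precision rests on 3 libraries per group. Of the 35 samples of the series, the others (single-cell RNA and DNA methylation) were not used here.

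The table held 54446 genes. Repeated lines of 12 identifiers were joined, and empty cells of 56 lines were taken as 0. Genes kept were autosomal, protein-coding and above 2 TPM in at least 3 libraries of a kit. limma (3.58.1, R 4.3.3) was fitted to log2(TPM + 1) within each kit over all its groups, with Benjamini-Hochberg adjustment over all genes tested. In simulated data, 196 of 200 genes changed by 2 log2 units were recovered with 1 false call for ESC-derived 3D EpiSCs against 2D EpiSCs (11541 genes). Shares used permutation tests in Python (3.11.15). The class I genes and gene lists were chosen with earlier results of these data known. Named genes were the 9, up to 4 called genes of largest change per list and comparison, and the 3 of most like pattern per class I gene. Alternatives were another pseudocount, no filter, all genes, rescaled TPM, fits to the compared groups alone, a replicate block, an intensity trend, averaged close replicates and each library left out. The GAANNGAAA motif was added after the data were seen.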

Additional observations from a re-analysis of the deposited data

How the results depend on the processing

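No direction of a called value was reversed by any alternative. Of 1033 alternative values for single class I genes, 976 kept their side of the call, 15 lost it, 22 gained it and 20 moved among values that were not called. All 84 alternatives for the proteasome shares stayed past the threshold, with adjusted p in the exact permutation test up to 0.0238 for Psmb9 in vitro. After TPM were rescaled by factors from medians of ratios, the number of class I genes called lower became 3 for ESC-derived 3D against 2D EpiSCs, 1 for embryo-derived 3D against 2D EpiSCs and 2 for embryo-derived 3D EpiSCs against EpiLCs, while the number called higher became 0 for embryo-derived 3D EpiSCs against EpiLCs, 2 for E4.5 against E3.5 and 0 for E7.5 against E6.5. That rescaling also moved the split of all genes called higher and lower from 1756 and 593 to 1337 and 786 for 2D EpiSCs against EpiLCs, from 73 and 1068 to 133 and 728 for ESC-derived 3D against 2D EpiSCs, from 1215 and 956 to 991 and 1090 for embryo-derived 3D EpiSCs against EpiLCs, from 228 and 229 to 270 and 150 for ESC-derived against embryo-derived 3D EpiSCs, and from 1265 and 231 to 736 and 384 for E7.5 against E6.5. With a pseudocount of 0.1, the number called lower became 1 for ESC-derived against embryo-derived 3D EpiSCs, 2 for embryo-derived 3D EpiSCs against EpiLCs and 2 for E7.5 against E6.5 (Psmb9, -2.52), and with smaller moves 6 for ESC-derived 3D against 2D EpiSCs (Psmb9, -1.10), 3 for embryo-derived 3D against 2D EpiSCs (Tap2, -1.32) and 5 for ESC-derived 3D EpiSCs against EpiLCs (Tap2, -1.32). At that pseudocount the Psmb8 steps were 5.52 at E5.5 and -4.09 at E7.5, and that of Psmb9 at E4.5 was -3.60. Leaving out a library gave 1 to 4 lower for embryo-derived 3D against 2D EpiSCs, 0 to 1 lower for ESC-derived against embryo-derived 3D EpiSCs, 0 to 1 higher and 1 to 2 lower for embryo-derived 3D EpiSCs against EpiLCs, 1 to 2 higher and 1 to 2 lower for E4.5 against E3.5, and 1 to 2 higher for E5.5 against E4.5. The causes of these changes were not tested, except that without any E3.5 library Tap1 is no longer tested.

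Replicate numbers did not pair the samples, since deviations of same-numbered libraries correlated at -0.0299 on average in vitro and -0.0166 in vivo. With the replicate number as a block, none of the 20 counts of class I genes and none of 76 single values changed its call (5 lower for ESC-derived 3D against 2D EpiSCs, as without it). Replicates 1 and 2 of ESC-derived 3D EpiSCs and of 2D EpiSCs and replicates 2 and 3 of embryo-derived 3D EpiSCs were closer to each other (median difference 0.0610, 0.0649 and 0.0569 log2 units) than to the remaining library, and averaging them changed no count of calls beyond 1.5 times. Depth is unknown, so levels near 0 cannot be given an error from counting.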
